A study of Homo sapiens with 6 samples.

Results

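The JAK kinases and STAT factors were examined in HCC1806/HM3 cells carrying a control shRNA or an shRNA against MSLN. The 9 genes analysed here were found by their symbols in the deposited gene table, out of 17860 listed genes. They are 3 kinases, JAK1, JAK2 and TYK2, and 6 transcription factors, STAT2, STAT3, STAT4, STAT5A, STAT5B and STAT6. All 9 had a value in every library and all 9 were tested. The rule used their names and not their values.

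HCC1806 is a human triple-negative breast cancer line, which the labels call squamous carcinoma cells, and HM3 is its liver-seeking derivative, recovered from liver metastases after repeated growth in mice. The cells had been infected with lentivirus and kept under G418, so that both groups carry a vector, the drug selection and the history of passage in animals. The control group (shNC) and the knockdown group (shMSLN) had 3 libraries each, all of poly(A)-selected RNA, and the comparison asks which transcripts change when MSLN, which encodes the surface protein mesothelin, is lowered. The labels name 1 cell population per group and do not say which MSLN shRNA it carried, and nothing says that the libraries came from separate cultures, so that p-values measure only the spread between these libraries.

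JAK kinases sit on the inner tails of cytokine receptors and are switched on when the ligand brings receptor chains together. They phosphorylate tyrosines of the receptor, STAT proteins dock there and are phosphorylated in turn, and paired STATs enter the nucleus and bind DNA. JAK1, JAK2 and TYK2 serve overlapping sets of receptors, whereas the STATs differ in the signals they carry, STAT2 for type I and III interferons, STAT3 for the interleukin-6 family, STAT4 for interleukin-12, STAT5A and STAT5B for growth hormone, prolactin and interleukin-2 and STAT6 for interleukin-4 and -13. The pathway is switched by phosphorylation, which RNA-Seq does not measure, and the values below are transcript levels.

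Libraries held between 17507837 and 18512135 estimated counts. MSLN itself was at 231, 226 and 227 CPM (counts per 1000000, with library sizes scaled by TMM) in the shNC libraries and at 37.1, 36.2 and 35.4 CPM in the shMSLN libraries, so the targeted gene was low in every library labelled as knockdown. All 9 epithelial and basal markers were at 1 CPM or more, led by KRT5, and their summed level was 5710 to 6380 CPM in shNC and 5460 to 5740 CPM in shMSLN. The summed leukocyte markers were at 29.4 to 31.8 CPM in shNC and 28.8 to 30.7 CPM in shMSLN, mostly CD68, while PTPRC, which all leukocytes carry, averaged 2.69 and 2.95 CPM and the hepatocyte markers summed to at most 1.45 CPM. The fibroblast list summed to 95.0 to 98.5 CPM in shNC and 160 to 164 CPM in shMSLN, mainly from LUM, which went from 60.3 to 125 CPM. COL1A1 averaged 31.0 and 31.4 CPM and COL1A2 0.0365 and 0.275 CPM. DCN, at 1.09 and 1.77 CPM, was also called higher (edgeR adjusted p = 0.0389). The endothelial list summed to 7.65 to 9.35 CPM in shNC and 9.08 to 10.4 CPM in shMSLN. The part of these shifts in the results was not tested. In bulk RNA, fewer cells of a kind and less RNA per cell cannot be told apart. Of counts above 100, 47.67% and 47.75% were whole numbers in shMSLN replicates 2 and 3, against 3.36% to 7.02% in the other 4 libraries, so the deposited columns were not all made alike. Each called change of the 9 genes is therefore also given for shMSLN replicate 1 alone against the 3 shNC libraries, and for the named genes of the pathway lists it is said which were called in that fit.

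Of the 9 genes, 5 changed between the groups by edgeR's quasi-likelihood test at an adjusted p below 0.05. Of all 14552 tested genes, 34.6% passed the same threshold, and the count of 5 of 9 is to be read against that share. JAK2 and STAT2 were higher in shMSLN, where 16.6% of all tested genes were higher. TYK2, STAT5A and STAT6 were lower, as were 18.0% of all tested genes. The library ranges of the groups did not overlap for 6 of the 9 genes, against 46.2% of all tested genes. The median log2 fold change over the 9 genes was -0.10, beside 0.0019 over all tested genes, and JAK2 had the widest change, an increase of 51.8%. STAT2 rose by 14.0%, TYK2 fell by 11.3%, STAT5A fell by 14.0% and STAT6 fell by 9.66%.

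**Figure D1:**
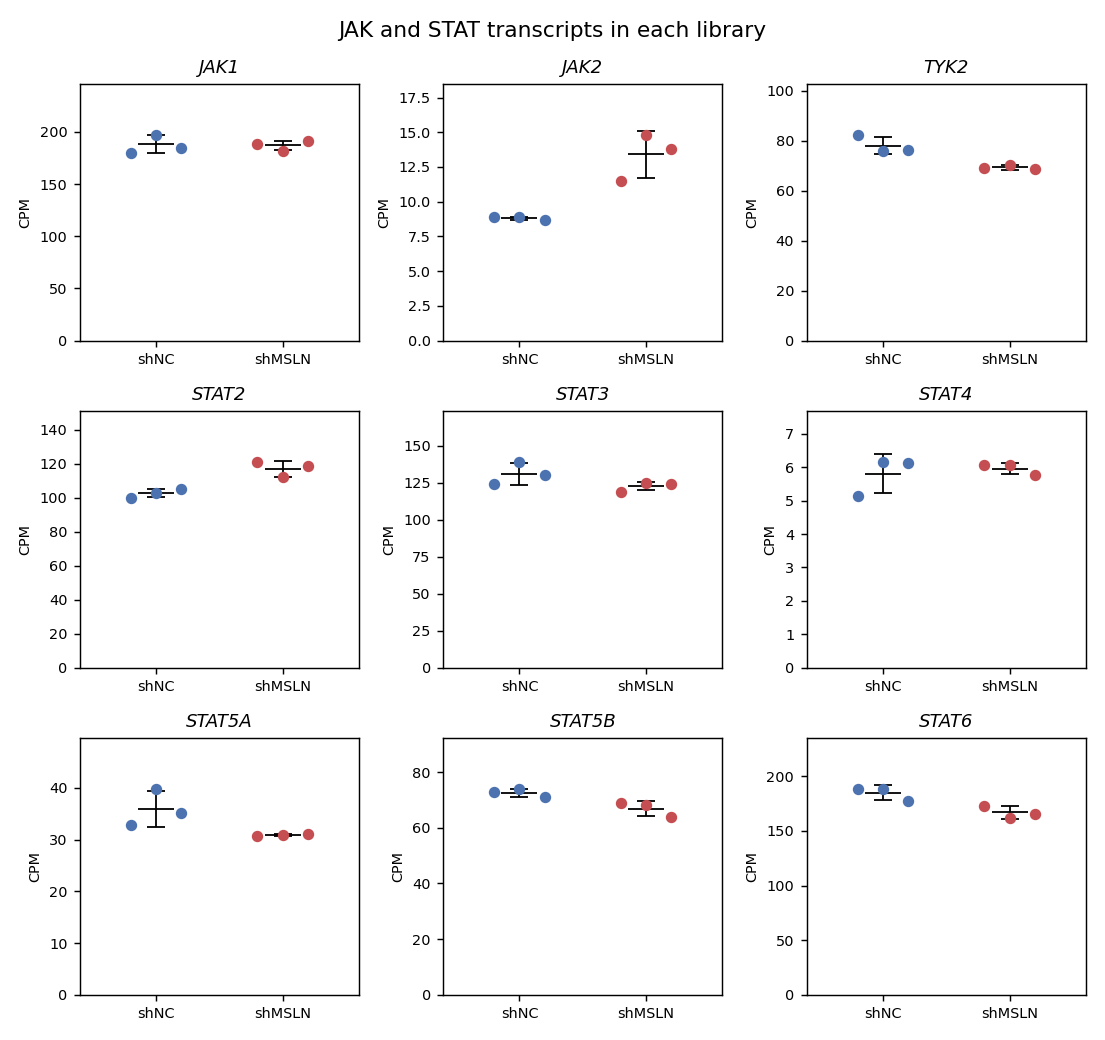
CPM of each JAK and STAT gene (vertical axes start at 0) in the 3 shNC and the 3 shMSLN libraries, one point per library, with the group mean and SD. JAK2 rises from about 8.81 to 13.4 CPM with no overlap, STAT2 rises less, and the points of JAK1 and of STAT4 overlap between groups.

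JAK2, the kinase of the erythropoietin, growth hormone and interferon gamma receptors, had the lowest level of the kinases in TPM (transcripts per 1000000 transcripts, scaled for length) and the largest change of the 9 genes. It was at 8.87, 8.87 and 8.68 CPM in shNC and at 11.5, 14.8 and 13.8 CPM in shMSLN. All shMSLN libraries were above all shNC libraries, and replicate 1 was the lowest of the knockdown group. The log2 fold change was 0.60 (SE 0.104, 95% interval 0.38 to 0.82, edgeR adjusted p = 0.000422). With shMSLN replicate 1 alone it was 0.39 (edgeR adjusted p = 0.1). These values rest on 155.69 to 264.12 estimated counts per library. JAK2 lies at chr9:4984390-5128183 on the plus strand (NCBI Gene 3717; all gene positions are GENCODE release 29, GRCh38).

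JAK1, the kinase used by interferon and gp130 family receptors, was the most abundant of the 3 kinases in TPM and was not called. It was at 180, 197 and 185 CPM in shNC and at 188, 182 and 191 CPM in shMSLN, and the groups overlapped. The log2 fold change of -0.01 had a 95% interval of -0.10 to 0.08 (edgeR adjusted p = 0.924), so that a change of the size seen for JAK2 lies outside it, and its sign turned under upper-quartile scaling. JAK1 lies at chr1:64833229-64966504 on the minus strand (NCBI Gene 3716).

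TYK2, the partner kinase of JAK1 on interferon alpha receptors and of JAK2 on interleukin-12 receptors, fell. It was at 82.3, 75.9 and 76.3 CPM in shNC and at 69.1, 70.3 and 68.5 CPM in shMSLN. Every shMSLN library was below every shNC library, and shNC replicate 1 stood above the rest. It changed by -0.17 on the log2 scale (SE 0.0464, 95% interval -0.27 to -0.08, edgeR adjusted p = 0.0094), and -0.18 with shMSLN replicate 1 alone, where it was not called (edgeR adjusted p = 0.183). TYK2 lies at chr19:10350529-10380676 on the minus strand (NCBI Gene 7297).

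STAT2, which joins IRF9 in the complex that interferon alpha sends to the nucleus, rose. It was at 100, 103 and 105 CPM in shNC and at 121, 112 and 119 CPM in shMSLN. All shMSLN libraries exceeded all shNC libraries. Its log2 fold change was 0.19 (SE 0.0428, 95% interval 0.10 to 0.28, edgeR adjusted p = 0.0033). It was called under all 18 alternatives tried, shMSLN replicate 1 alone included (0.23, edgeR adjusted p = 0.0447). STAT2 lies at chr12:56341597-56360155 on the minus strand (NCBI Gene 6773). Its partner IRF9 was at 15.6, 22.2 and 16.8 CPM in shNC and at 23.2, 22.7 and 20.9 CPM in shMSLN, called higher although the groups overlapped (log2 fold change 0.29, edgeR adjusted p = 0.0443).

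STAT3, the factor of interleukin-6, leukemia inhibitory factor and oncostatin M, was not called. It was at 124, 139 and 130 CPM in shNC and at 119, 125 and 124 CPM in shMSLN. The groups overlapped, with shNC replicate 2 the highest of the 6 libraries. Its change was -0.10 on the log2 scale (SE 0.0458, 95% interval -0.20 to 0.00, edgeR adjusted p = 0.115). It was -0.05 without shNC replicate 2 (edgeR adjusted p = 0.392), and without shNC replicate 1 it was -0.14 and called (edgeR adjusted p = 0.0116), so single control libraries decide its size and its call. STAT3 lies at chr17:42313324-42388568 on the minus strand (NCBI Gene 6774).

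STAT4, the factor of interleukin-12 and mainly a gene of lymphocytes, was low. It was at 5.14, 6.15 and 6.12 CPM in shNC and at 6.07, 6.06 and 5.76 CPM in shMSLN, on 93.97 to 112.96 estimated counts. The groups overlapped. A log2 fold change of 0.04 was found, with a 95% interval of -0.23 to 0.31 (edgeR adjusted p = 0.838), the widest interval of the 9 genes, and a change of the size seen for STAT2 was not detectable at this depth. STAT4 lies at chr2:191029576-191151596 on the minus strand (NCBI Gene 6775).

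STAT6, the factor of interleukin-4 and interleukin-13, was the most abundant of all 9 genes in TPM and fell. It was at 188, 188 and 177 CPM in shNC and at 173, 162 and 165 CPM in shMSLN. The groups did not overlap, although shNC replicate 3 and shMSLN replicate 1 were close. The log2 fold change was -0.15 (SE 0.0416, 95% interval -0.24 to -0.06, edgeR adjusted p = 0.0134). It was -0.09 and not called with shMSLN replicate 1 alone (edgeR adjusted p = 0.461), and the call was also lost without shMSLN replicate 2 (-0.13, edgeR adjusted p = 0.0894) or replicate 3 (-0.14, edgeR adjusted p = 0.0672). It was lost as well with limma on log2(TPM + 0.5) and on log2(TPM + 0.1), at adjusted p of 0.0931 and 0.0941. STAT6 lies at chr12:57095408-57132139 on the minus strand (NCBI Gene 6778). Its exons overlap those of NAB2 and LRP1 on the other strand over 69 and 59 of 7298 exonic bases, 0.945% and 0.808%, and without knowledge of strand such reads cannot be assigned. No member other than JAK1, with 4 bases of RAVER2, and STAT4, with 109 bases of a noncoding transcript, shares exonic bases with another annotated gene.

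STAT5A and STAT5B are neighbours that arose from a common gene, and they are so alike that reads can be shared between them. They lie 10839 bases apart, STAT5B at chr17:42199168-42276707 on the minus strand (NCBI Gene 6777) and STAT5A at chr17:42287547-42311943 on the plus strand (NCBI Gene 6776), with STAT3 only 1380 bases beyond STAT5A. The aligned coding sequences of the transcripts STAT5A-201 and STAT5B-201 were 89.1% identical, 2082 of 2338 bases, and one stretch of 429 bases, coding positions 564 to 992 in both, held no difference at all. A 100-base stretch of the longest STAT5A transcript recurred exactly in STAT5B at 371 of 4202 positions, 8.83%, and for STAT5B the share was 7.41%. No 100-base stretch of the other 7 genes recurred in another gene's transcript. With 50-base stretches, STAT3 alone of these 7 shared any, at 67 of 4998 positions, 1.34%. The shares of STAT5A and STAT5B were then 11.9% and 10.0%. The end of the identical stretch shows how little there is to tell the transcripts apart. The lines hold coding positions 933 to 1052 of each gene, the first 60 bases of them within the identical stretch, and the capital marks the only base that differs. They are spliced sequence, spanning chr17:42300814-42301337 for STAT5A and chr17:42218268-42218779 for STAT5B on GRCh38, each read 5′ to 3′ on its own strand.
STAT5A: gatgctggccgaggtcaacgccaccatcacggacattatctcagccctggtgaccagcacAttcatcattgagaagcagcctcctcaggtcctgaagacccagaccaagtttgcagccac
STAT5B: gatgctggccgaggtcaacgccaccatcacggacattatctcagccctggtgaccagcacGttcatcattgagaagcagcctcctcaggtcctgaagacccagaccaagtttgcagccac

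STAT5A, the better known of the pair for prolactin signaling in the breast, was at 32.8, 39.7 and 35.2 CPM in shNC and at 30.7, 30.9 and 31.0 CPM in shMSLN. The knockdown libraries lay close together below all controls, among which replicate 2 was the highest. The log2 fold change was -0.22 (SE 0.0678, 95% interval -0.36 to -0.07, edgeR adjusted p = 0.0215). Without shNC replicate 2 it was -0.14 and not called (edgeR adjusted p = 0.101), and the call was also lost when any 1 shMSLN library was left out, at an edgeR adjusted p of 0.0598 to 0.067, and with shMSLN replicate 1 alone (-0.23, edgeR adjusted p = 0.215). With limma on log2(TPM + 0.5) and on log2(TPM + 0.1) the adjusted p was 0.097 and 0.0952, also without a call.

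STAT5B, the main STAT of growth hormone, was at 72.7, 73.8 and 70.9 CPM in shNC and at 68.9, 68.0 and 63.7 CPM in shMSLN. The ranges did not overlap, but the gene was not called (log2 fold change -0.12, SE 0.0465, 95% interval -0.22 to -0.02, edgeR adjusted p = 0.0671), and it was -0.07 with shMSLN replicate 1 alone. The sum of both genes does not depend on how reads are divided between them. Summed before the fit, they were at 106, 114 and 106 CPM in shNC and at 99.6, 98.9 and 94.7 CPM in shMSLN, with no overlap. The summed log2 fold change was -0.15 (SE 0.0439, 95% interval -0.24 to -0.06, edgeR adjusted p = 0.0162), so the sum fell by 9.82%. This sum was added after seeing the data. The log2 ratio of STAT5A to STAT5B, taken from the deposited TPM, was -0.71, -0.49 and -0.57 in shNC and -0.76, -0.72 and -0.63 in shMSLN. These ratios overlapped and differed by -0.11 (exact permutation p = 0.2).

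**Figure D2:**
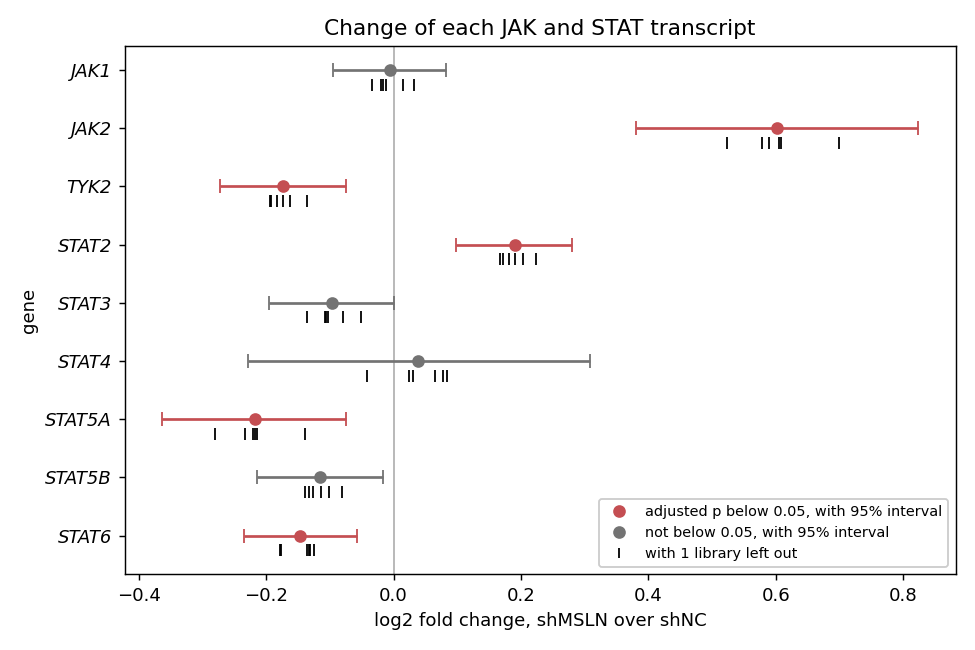
Log2 fold change of each gene, shMSLN over shNC, with its 95% interval (edgeR), in red where the adjusted p was below 0.05, and black ticks for the fits with 1 library left out. JAK2 and STAT2 lie to the right of 0 in every fit, TYK2, STAT5A and STAT6 to the left, and the ticks of JAK1 and STAT4 fall on both sides.

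The controls were uneven in one respect that touches several members. Library shNC replicate 2 held the highest value of the 6 libraries for 5 of the 9 genes, JAK1, STAT3, STAT4, STAT5A and STAT5B, and the lowest for 0. Its part in the lower means of STAT3 and STAT5A in shMSLN is given by the values without it above. The share of all tested genes that were highest in this library was not determined. The count is therefore not shown to be particular to these genes.

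Levels of different genes can be compared only per length, and the deposited TPM values were used for this. In shNC the order was STAT6 (101 ± 4.87 TPM, SD, n = 3), JAK1 (82.1 ± 5.73), STAT3 (59.7 ± 4.95), STAT2 (51.2 ± 1.79), TYK2 (42.3 ± 1.33), STAT5B (31.3 ± 1.44), STAT5A (20.9 ± 2.34), STAT4 (4.96 ± 0.662) and JAK2 (2.80 ± 0.0751). No neighbours in this order overlapped between libraries. The order depends on the lengths behind the TPM. Counts and the deposited FPKM together imply lengths of 129% and 132% of the longest coding GENCODE transcript for JAK2 and STAT2, against 86.5% to 97.4% for the other 7 genes. Per 1000 bases of that transcript, an alternative added after seeing the data, STAT2 stood above STAT3 in shNC (31.5 and 26.0 CPM per 1000 bases, no overlap) and JAK2 above STAT4 in shMSLN (2.53 and 2.11, no overlap), and all other ranks but for these pairs were as by TPM. In shMSLN the order was the same but for STAT2 (60.3 ± 2.48 TPM), which stood above STAT3 (56.9 ± 1.41 TPM), and these 2 overlapped. STAT6 stood at percentile 91.3 and JAK2 at percentile 32.4 of all listed genes by mean TPM in shNC. STAT6 was the highest with either length.

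**Figure D3:**
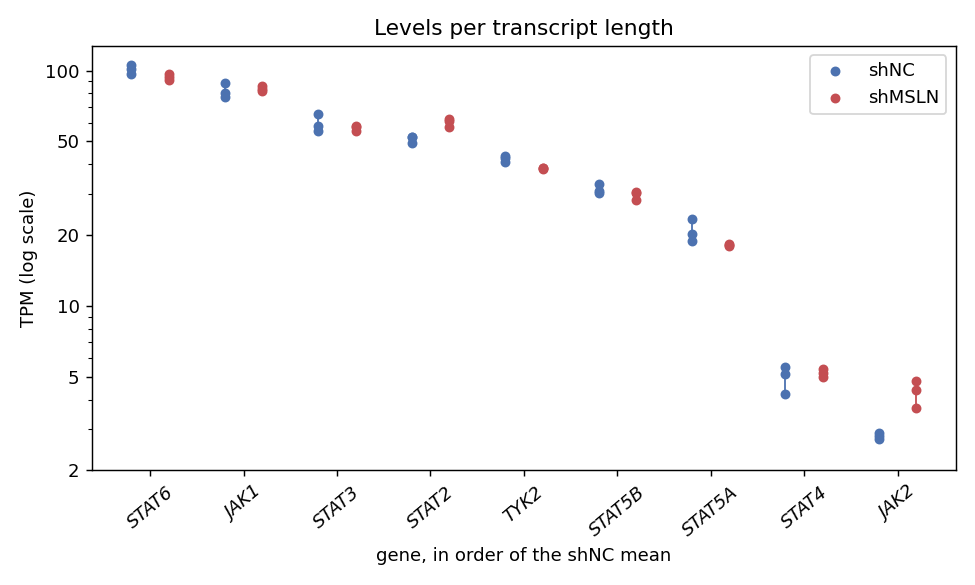
TPM (log axis) of the 9 genes in the order of their shNC means, with the 3 shNC and the 3 shMSLN libraries side by side, joined by a line from the lowest to the highest. STAT6 and JAK1 are at the top near 100 TPM, STAT4 and JAK2 at the bottom below 6 TPM, and STAT2 passes STAT3 in shMSLN, whereas with annotated lengths STAT2 is above STAT3 in both groups.

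The summed TPM of each family differed between the groups by less than the spread between libraries. The 3 kinases together were at 127 ± 6.0 TPM in shNC and 127 ± 1.92 TPM in shMSLN (SD, n = 3, exact permutation p = 1.0). The 6 STATs together were at 269 ± 13.8 and 264 ± 3.1 TPM (exact permutation p = 0.9). JAK2 made up 2.26%, 2.15% and 2.21% of the kinase TPM in shNC and 2.95%, 3.81% and 3.42% in shMSLN. TYK2 made up 35.0%, 31.8% and 32.9% in shNC and 30.3%, 30.8% and 29.9% in shMSLN. Neither share overlapped between groups, while the JAK1 share did, at a mean of 64.5% and 66.3%. Relative to JAK1, the log2 ratio of JAK2 went from -4.87 to -4.29 and that of TYK2 from -0.96 to -1.13, without overlap for either.

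Among the STATs, STAT2 made up 18.9%, 18.3% and 19.9% of the TPM in shNC and 22.9%, 22.0% and 23.5% in shMSLN. STAT6 went from a mean of 37.7% to 35.6% and STAT5A from 7.73% to 6.88%, also without overlap. The shares of STAT3 (22.1% and 21.5%), STAT5B (11.6% and 11.2%) and STAT4 (1.84% and 1.97%) overlapped. With 3 libraries against 3 the exact two-sided permutation test cannot go below p = 0.1, which all the shares and ratios without overlap reached, and after Benjamini-Hochberg adjustment over 12 measures this was 0.171, so none of the shares passes a threshold of 0.05. Shares are not independent of each other, since they add up to the whole of the family.

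The start regions of the genes were searched for the letters that STAT dimers bind. RefSeq (GRCh38.p14) gave 17 windows for the 9 genes, each from 250 bases before to 50 after a start site. The GAS element TTCNNNGAA was in 0 of the 17 windows and in 7.66% of all 35116 windows. The wider spacing preferred by STAT6, TTC and GAA with 4 bases between them, was in 1 window, of STAT5A, and in 6.44% of all. The interferon response core, GAAA and GAAA with 2 bases between them, was in 0 of the 17 and in 3.57% of all. The ETS core CCGGAA was in 3 windows, of JAK1 and STAT3, and in 17.2% of all. Both strands were searched. The match in STAT5A starts 229 bases before the start site and overlaps none of the other motifs.

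The 250 bases before the start are shown for the pair of genes that rose and for STAT5A, with the match in capitals. JAK2 has 4 listed starts, and the one at the start of the annotated gene is given (chr9:4984140-4984389, plus strand). STAT2 has 1 (chr12:56360108-56360357, minus strand), and of the 3 starts of STAT5A the one with the match is given (chr17:42287189-42287438, plus strand). The JAK2 window holds 48.4% G and C and the STAT2 window 67.2%. Neither holds any of the 4 motifs.
JAK2: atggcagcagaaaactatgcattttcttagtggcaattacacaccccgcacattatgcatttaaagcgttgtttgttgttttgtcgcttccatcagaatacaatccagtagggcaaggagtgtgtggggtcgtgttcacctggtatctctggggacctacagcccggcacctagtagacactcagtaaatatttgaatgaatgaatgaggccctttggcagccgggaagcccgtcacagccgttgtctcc
STAT2: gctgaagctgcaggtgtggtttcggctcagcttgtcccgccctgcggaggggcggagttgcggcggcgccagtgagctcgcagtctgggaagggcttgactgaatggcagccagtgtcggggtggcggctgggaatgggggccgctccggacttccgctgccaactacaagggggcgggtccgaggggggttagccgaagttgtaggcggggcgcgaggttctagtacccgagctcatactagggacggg
STAT5A: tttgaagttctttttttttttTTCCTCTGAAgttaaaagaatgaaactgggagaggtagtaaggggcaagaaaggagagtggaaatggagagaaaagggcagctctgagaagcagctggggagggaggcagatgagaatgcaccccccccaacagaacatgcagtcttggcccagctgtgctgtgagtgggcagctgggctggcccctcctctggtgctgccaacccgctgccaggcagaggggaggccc

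Genes around the kinases and STATs were followed in lists of receptors, ligands, inhibitors, partners and targets, 108 tested genes in all. In shMSLN 15 rose and 36 fell, with a median log2 fold change of -0.08. Together 47.2% were called, beside 34.6% of all tested genes.

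**Figure D4:**
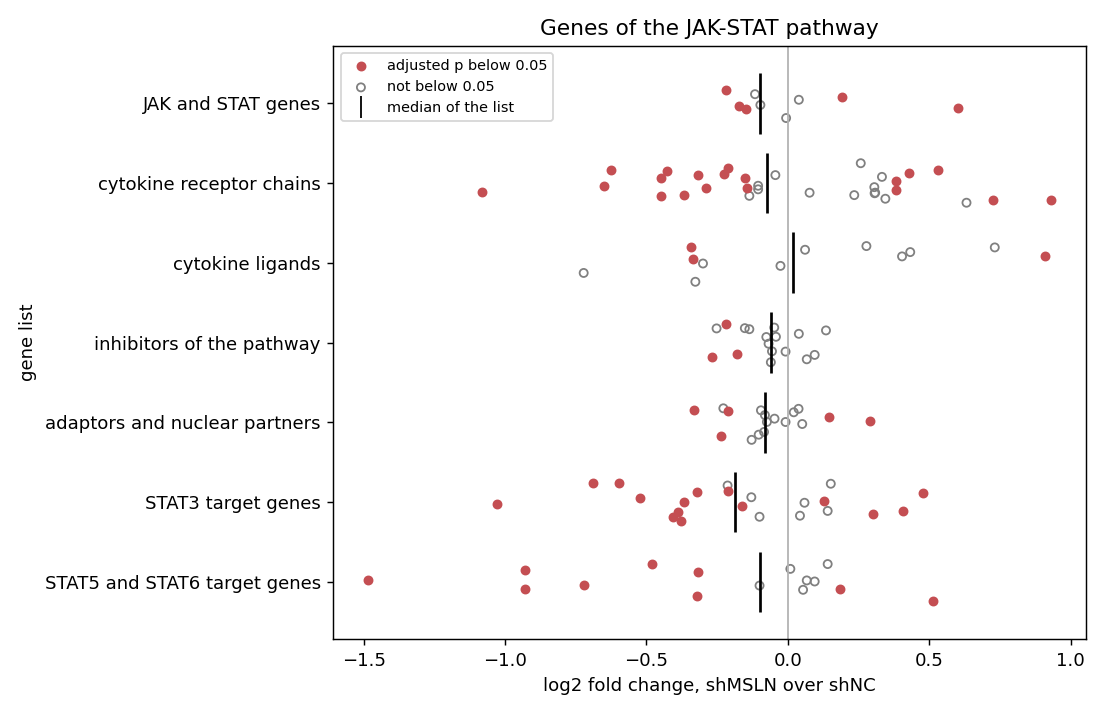
Log2 fold change, shMSLN over shNC, of every tested gene of the JAK and STAT families and of 6 lists of pathway genes, red where the edgeR adjusted p was below 0.05, with the median of each list as a black line. Receptor chains and target genes spread far to both sides, and the 17 inhibitors hold 0 red points above 0 and 3 below it.

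Receptor chains, on which the kinases sit, had 6 higher and 13 lower of 32 tested. These are 18.8% and 40.6% of the list, beside 16.6% higher and 18.0% lower of all tested genes, so that the share that rose was near that of all genes. IFNGR2, a chain of the interferon gamma receptor that holds JAK2, was at 76.1, 78.2 and 77.0 CPM in shNC and at 57.3, 57.7 and 57.2 CPM in shMSLN (log2 fold change -0.43, SE 0.0429, edgeR adjusted p = 2.89e-06). IL7R, the interleukin-7 receptor chain, fell from a mean of 19.7 to 9.30 CPM (log2 fold change -1.08, SE 0.11, edgeR adjusted p = 3.13e-06). IL15RA, which presents interleukin-15, fell from 26.0 to 16.6 CPM (log2 fold change -0.65). In contrast, IL11RA rose from 7.10 to 11.7 CPM (log2 fold change 0.73), IL6R from 6.64 to 9.59 CPM (0.53) and IL12RB1 from 9.88 to 12.9 CPM (0.38). None of these 6 receptors overlapped between groups. With shMSLN replicate 1 alone, IFNGR2, IL7R, IL15RA and IL11RA were called, IL6R and IL12RB1 were not, and 9 of the 32 chains were called in all.

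Sorted by kind after the values were seen, the interferon receptor chains had 3 of 5 lower and 0 higher by edgeR. Of all tested genes, 18.0% were lower and 16.6% higher. DESeq2 and limma-voom gave the same counts on the same libraries, and 4 were lower and 0 higher at an unadjusted p below 0.05. IFNGR1 fell from 69.7 to 51.1 CPM and IFNAR2 from 38.5 to 33.3 CPM. The gp130 family, whose signal goes mainly through JAK1 and STAT3, was counted together with LEPR, the leptin receptor. These 7 tested chains had 4 lower and 3 higher by edgeR and by limma-voom. By DESeq2 there were 3 lower and 2 higher, and edgeR called 34.6% of all tested genes. IL6ST, the shared chain of the gp130 family, fell from 166 to 128 CPM (log2 fold change -0.37, edgeR adjusted p = 0.00138). OSMR fell from 92.7 to 67.9 CPM and LIFR from 12.8 to 8.32 CPM. LEPR, which also fell, averaged 15.8 CPM in shNC. The chains that rose, IL6R, IL11RA and IL27RA, were scarce, at 11.7 CPM or less. Scarcity was not particular to them, since LIFR lay below IL6R and IL11RA in shMSLN.

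Of 12 tested ligands, 1 was higher and 2 lower, 8.33% and 16.7% of the list, beside 16.6% and 18.0% of all tested genes. CTF1, cardiotrophin 1, was at 8.59, 8.31 and 7.96 CPM in shNC and at 17.3, 14.4 and 15.0 CPM in shMSLN (log2 fold change 0.91, SE 0.0955, edgeR adjusted p = 4.37e-06). LIF, leukemia inhibitory factor, fell from 15.8 to 12.4 CPM (log2 fold change -0.34) and CLCF1, another ligand of the gp130 family, from 7.53 to 5.97 CPM (-0.34, edgeR adjusted p = 0.049). Of these 3, only CTF1 was called with shMSLN replicate 1 alone. Of the 27 listed ligands found in the table, the other 15 did not enter the test for low counts or missing values.

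The inhibitors had 0 higher and 3 lower of 17 tested by edgeR, 17.6% called beside 34.6% of all tested genes. The number called was 1 without shMSLN replicate 3, 5 without shNC replicate 1 and 1, CBL, with shMSLN replicate 1 alone. At an unadjusted p below 0.05 it was 0 and 5, and by DESeq2 and by limma-voom 0 and 3. CBL, a ubiquitin ligase, fell from 105 to 87.3 CPM (log2 fold change -0.27, edgeR adjusted p = 0.000758). SH2B3, the adaptor LNK that restrains JAK2, fell from 38.1 to 32.7 CPM (-0.22, edgeR adjusted p = 0.0096), and PTPN2, a phosphatase of JAK1 and STAT proteins, from 64.8 to 57.3 CPM (-0.18, edgeR adjusted p = 0.0113). None of the 7 tested SOCS and CISH genes, some of which STATs induce as feedback, was called. Their log2 fold changes were -0.25 to 0.10, at edgeR adjusted p of 0.0721 or more, and none of the 4 PIAS genes was called. At an unadjusted p below 0.05 there was 1 gene in each of these sets, lower in shMSLN, and DESeq2 and limma-voom called 0. CISH and SOCS1 averaged only 1.14 and 0.81 CPM in shNC. Their 95% intervals, -0.475 to 0.665 and -0.573 to 0.707, include even a rise of the size seen for JAK2. SOCS3, the feedback inhibitor of gp130 signaling, was at a mean of 8.71 CPM in shNC and 7.32 CPM in shMSLN (log2 fold change -0.25, 95% interval -0.51 to 0.01, edgeR adjusted p = 0.123). SOCS3, CISH and SOCS1 are named here although they lie outside the rule for named genes.

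Adaptors and nuclear partners had 2 higher and 3 lower of 17 tested, 11.8% and 17.6%, beside 16.6% and 18.0% of all tested genes. The number called was 2 without shNC replicate 3, shMSLN replicate 1 or shMSLN replicate 2, and 8 without shNC replicate 1. SH2B1, an adaptor that enhances JAK2, rose from 44.7 to 49.4 CPM (log2 fold change 0.15, edgeR adjusted p = 0.0356), beside IRF9 above. IPO5 and KPNA3, importins, fell from 94.4 to 74.9 CPM (log2 fold change -0.33) and from 48.5 to 41.9 CPM (-0.21), and NCOA1, a coactivator, from 22.3 to 18.9 CPM (-0.24). Of these 5 genes, IRF9 included, only IPO5 was called with shMSLN replicate 1 alone.

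Genes known as STAT3 targets in other cells had 4 higher and 11 lower of 22 tested, beside 34.6% of all tested genes called in either direction. The median log2 fold change of the list was -0.19, beside 0.0019 over all tested genes. BCL3, an atypical inhibitor of NF-kappa-B, was at 34.8, 34.6 and 32.8 CPM in shNC and at 16.8, 17.0 and 16.3 CPM in shMSLN (log2 fold change -1.03, SE 0.0615, edgeR adjusted p = 1.61e-08). CEBPB, a transcription factor, fell from 136 to 89.6 CPM (-0.60) and CCND1, cyclin D1, from 414 to 316 CPM (-0.39). Other listed targets went the other way, VEGFA from 24.7 to 34.4 CPM (0.48), TIMP1 from 40.2 to 53.4 CPM (0.41) and BIRC5, survivin, from 160 to 197 CPM (0.30). All 6 were also called with shMSLN replicate 1 alone. Many of these genes answer to NF-kappa-B and ERK signaling as well, and the part of STAT3 was not tested.

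Listed targets of STAT5 and STAT6 had 2 higher and 7 lower of 15 tested, 13.3% and 46.7% of the list. Of all tested genes, 16.6% were higher and 18.0% lower, so the share that rose was near that of all genes. The median log2 fold change of the list was -0.10. BCL6, a repressor, was at 92.1, 100 and 102 CPM in shNC and at 70.4, 70.6 and 69.8 CPM in shMSLN (log2 fold change -0.48, SE 0.0471, edgeR adjusted p = 2.21e-06). AKR1C2, a steroid reductase, fell from 506 to 307 CPM (-0.72) and PIM1, a kinase that is also on the STAT3 list, from 114 to 90.9 CPM (-0.32). ALOX15, a lipoxygenase known for its answer to interleukin-4, rose from 8.84 to 12.6 CPM (0.51) and ID1 from 369 to 419 CPM (0.18). All 5 were also called with shMSLN replicate 1 alone. The list was not split into targets that these STATs induce and targets that they repress. The part of STAT5 and STAT6 in these changes was not tested.

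Among the genes with the profile nearest to that of JAK2 over the 6 libraries, out of 11742 genes at 5 CPM or more, were MYL6B and H2BC21, at root mean square differences of 0.0659 and 0.076 in centred log2 CPM. MYL6B, a myosin light chain, was at 26.1, 26.5 and 28.2 CPM in shNC and at 33.0, 41.4 and 40.3 CPM in shMSLN, with replicate 1 the lowest of the knockdown group as for JAK2. For STAT3 the nearest were DCLRE1C, CHD6 and ZNF445, at 0.0122, 0.0132 and 0.0139. These 3 genes share with STAT3 a highest value in shNC replicate 2. They were chosen for likeness to STAT3 over the same 6 libraries, so this likeness is no separate result. The same holds for MYL6B and JAK2.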

How the data were processed

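RNA of 6 samples of HCC1806/HM3 cells (3 per group) was read at BGI. The authors deposited 1 table of 17860 genes with estimated counts per gene, not scaled to library size, and with TPM and FPKM values, scaled by the authors for length and depth. The build is GRCh38.p13 by the submitters' processing notes, and the aligner, quantifier and annotation are not given in the sources used here. Missing marks in the shMSLN columns removed 1287 genes, none a JAK or STAT gene of those analysed. Groups came from the sample titles.

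Estimated counts were rounded and fitted in edgeR 4.0.16, running under R 4.3.3 (scaling by TMM, filterByExpr, glmQLFit, glmQLFTest, no covariate, 14552 genes, Benjamini-Hochberg, threshold 0.05), since no test is stated for this comparison. The standard error is the log2 fold change over the square root of F. CPM uses TMM-scaled totals. Libraries held 17507837 to 18512135 counts. Shares used TPM and exact permutation tests. STAT5A and STAT5B coding sequences were aligned with MAFFT 7.526. Tried in place of these choices were scaling by RLE or the upper quartile, a filter of 1 count in all or 10 in every sample, DESeq2 1.42.0, limma-voom, robust estimation, limma 3.58.1 on log2(TPM + 0.5) and log2(TPM + 0.1), the replicate block, each sample left out, shMSLN replicate 1 alone and missing values as 0, and for shares also FPKM and counts. Scripts were tested on simulated data.

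Named were all 9 members, MSLN, up to 3 called genes per pathway list and direction with the smallest adjusted p and a mean of at least 1 CPM, the 3 nearest profiles of JAK2 and STAT3 and the top markers. A gene that this rule covers is not reported here. IFNGR1, IFNAR2, IL6ST, OSMR, LEPR, LIFR, IL27RA, SOCS3, CISH and SOCS1, and the overlapping genes, were chosen after their values were seen. The members and lists were chosen with earlier results of these data known.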

Additional observations from a re-analysis of the deposited data

How the results depend on the processing

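Of 162 values of the 9 genes under the other settings, 138 kept direction and call, 14 lost the call, 3 gained it and 7 turned sign. JAK1 turned to 0.023 under upper-quartile scaling, 0.032 with both TPM fits and 0.006 with shMSLN replicate 1 alone, and lay between -0.034 and 0.032 with 1 sample left out. STAT4 lay between -0.042, without shNC replicate 1, and 0.084. The number of the 9 genes called was 3 with both TPM fits, where STAT5A and STAT6 lost the call, between 3 (without shMSLN replicate 2 or 3) and 6 with 1 sample left out, and 1, STAT2, with shMSLN replicate 1 alone, a fit that takes the lone sample to vary like the controls and has fewer samples.

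With shMSLN replicate 1 alone, 9 receptors, 1 ligand, 1 inhibitor, 1 partner and 5 STAT5 and STAT6 targets were called, and 1797 of all genes. Both TPM fits called 1 inhibitor and 1 partner, and DESeq2 called 2 partners. With 1 sample left out, the fewest inhibitors called were 1 (shMSLN replicate 3 left out) and the most 5 (shNC replicate 1 left out), the fewest partners 2 (shNC replicate 3, shMSLN replicate 1 or 2 left out) and the most 8 (shNC replicate 1 left out), and all genes from 3695 to 5399. Of the genes called, 47.9% were higher in shMSLN, 57.5% under upper-quartile scaling and 61.0% on log2(TPM + 0.5). Other causes were not tested.

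Samples with the same number correlated at 0.165, 0.0764 and 0.0718 in their deviations from the group means, not all above 0.1, so the numbers were not taken to pair them, although each sample correlated best with its own number. The replicate block called 5789 genes and 7 of the 9, adding STAT3 (edgeR adjusted p = 0.0486) and STAT5B (edgeR adjusted p = 0.0365). All 120 alternative values of the shares and ratios kept their direction. Those from FPKM and from the replicate block could not turn. FPKM differs from TPM by a constant factor within a library, and the block leaves the mean difference unchanged. With the length of the longest coding transcript, the log2 ratio of STAT3 to STAT2 in shNC turned from 0.22 to -0.277 and that of STAT4 to JAK2 in shMSLN from 0.27 to -0.262. Genes near 1 CPM are limited by depth.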
